A study of Homo sapiens with 6 samples.

Results

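The genes examined were the replication-dependent histone genes of the main clusters on chromosomes 6 and 1. They were chosen by name and place: protein-coding genes of the GENCODE 44 annotation of hg38 whose symbol begins with H1-, H2AC, H2BC, H3C or H4C, lying between 25.9 and 28.0 Mb of chromosome 6 or between 149.8 and 150.0 Mb of chromosome 1. This rule took 63 of 20033 protein-coding genes, namely 6 genes of the linker histone H1, 15 of H2A, 15 of H2B, 13 of H3 and 14 of H4. No peak was used to choose them.

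Histones are the proteins around which DNA is wound, and these genes supply them while a cell copies its DNA. They are kept in many near-identical copies, nearly all of them without introns, and their mRNAs end in a short stem-loop instead of a poly(A) tail. H2A and H2B genes often lie head to head and share the stretch between their starts, where the octamer motif bound by the transcription factor Oct-1 is found. The factor NPAT gathers at the clusters and activates them in S phase.

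The study asked where benzoylated lysine, an acyl mark of histones that sodium benzoate (SB) raises, lies in the genome beside acetylated lysine. Chromatin of the human liver tumour line HepG2 was cut with micrococcal nuclease and immunoprecipitated with pan antibodies against acetylated lysine (Kac) or benzoylated lysine (Kbz), which bind the mark on any histone and at any lysine. Cells were grown without SB (control) or with 10 mM SB for 24 h, and input, Kac and Kbz libraries were sequenced from each, giving 6 libraries in 6 groups. All of them carry the label of the same cell line, and no group has a second library. Peak lists of control Kac (70326 peaks), SB Kac (63282) and SB Kbz (24308) were used. The labels state that the control Kbz library gave no peaks, and the inputs were not analysed here. There was therefore no error between replicates and no test between groups. Sequencing depth was unknown, and a place without a peak is a place where none was called, not one shown to lack the mark. The height of a peak is given as the percentile of its fold over background within its own list, since folds of separate lists are not on a common scale.

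Whether reads could be placed at these genes at all was examined first, because the authors kept reads of 50 bp that mapped to a single place. A stretch of 50 bases that occurs more than once in the reference was counted as unable to hold such a read. This count is not a strict limit. At the gene DAXX, 0% of the 50-mers near the start were unique. Peaks of control Kac, SB Kac and Kbz nevertheless covered 100, 100 and 92.7% of the bases there. Of the 63 members, 56 had at least 80% unique 50-mers within 1 kb of the gene (range 80.3 to 100%, median 97.2%) and are called readable here. The other 7 lay together on chromosome 1, in a stretch that holds mirrored copies of the same genes. They were H3C13 with 32.1% unique 50-mers, H2AC18 with 9.62%, H2AC19 with 9.66%, H4C14 with 0.508%, H4C15 with 0.695%, and H3C14 and H3C15 with no unique 50-mer. The promoters of H4C14 and H4C15 were identical in all bases. A missing peak at these 7 genes cannot be told apart from reads that were discarded, so results are given for all members and for the readable ones.

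**Figure D1:**
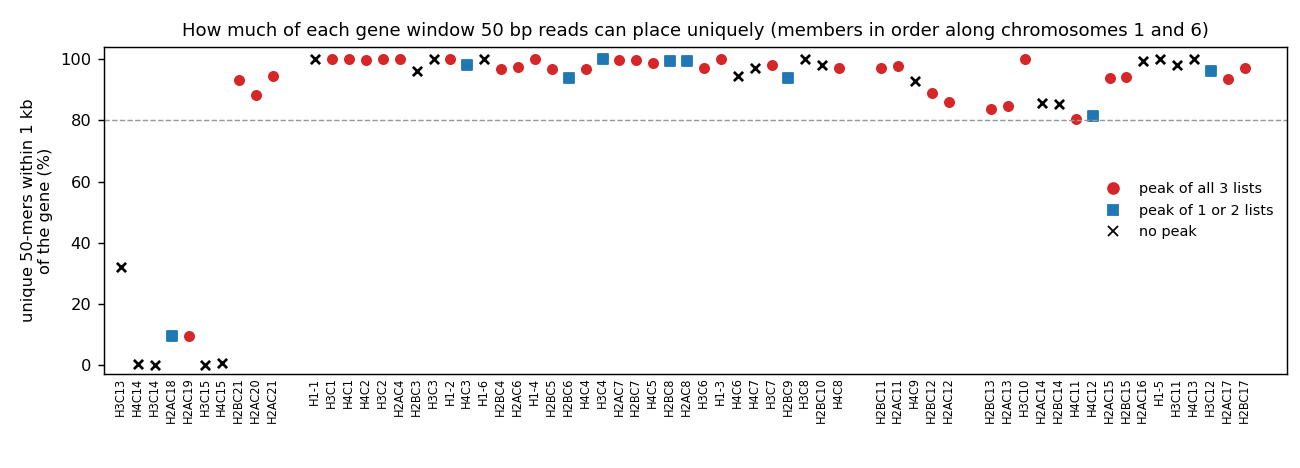
Percentage of 50-mers within 1 kb of each of the 63 genes that occur once in the reference (y axis), with members in order along chromosome 1 (left group) and the 3 chromosome 6 sub-clusters; colour and shape give the lists with a peak within 1 kb of the canonical start, and the dashed line marks 80%. The 7 members of the first group below the line lie at 32.1% or less, and members without a peak on chromosome 6 lie at 85.2% or more.

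The label of the cells was set beside 13 hepatocyte markers. Within 1 kb of the gene, control Kac was found at 5 of the 13, SB Kac at 6 and Kbz at 3 (38.5, 46.2 and 23.1%, beside 80.1, 79.0 and 68.9% of all protein-coding genes). Near the start of the canonical transcript the counts were 2, 1 and 0 (beside 68.9, 68.2 and 57.3%), and over that start no list had a peak at any of the 13. ALB, APOB, FGA, FGB, FGG, FOXA2 and TF had no peak in any list, while HNF4A, APOA1 and APOA2 had all 3 within 1 kb of the gene. Near their starts HNF4A had none, APOA1 control Kac alone and APOA2 both Kac lists. The cells are called HepG2 as the labels call them, and the part of this in the histone results was not tested.

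The stem-loop was looked up as a check of the class. Within 200 bases after the coding sequence, 60 of the 63 had a match on the gene strand to the 16-base consensus of the histone mRNA stem-loop. It began 26 to 71 bases after the annotated coding sequence. The most frequent form was shared by 35 members of the H1, H2A, H2B and H3 families, and each of the 2 next forms by 9, one of them found only in H4 genes. The first and the H4 form are shown because this element marks the class of gene. The capitals are the bases fixed in the search, and the lower case ones were left free:
form of 35 members: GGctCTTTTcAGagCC
form of 9 H4 members: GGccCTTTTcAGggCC
The other form of 9 was carried by the H1 genes H1-1 and H1-6, by H2AC21 and H3C8 and by 5 H2B genes. H3C6, H2BC10 and H4C13 had no match to this consensus in that window.

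Promoters from 250 bases before to 50 bases after the start were taken from RefSeq (GRCh38.p14) for 58 members. H4C1, H4C3, H2AC12, H3C11 and H3C12 were not matched. On either strand, the octamer ATTTGCAT stood in 22 of these 58 promoters (37.9%), against 1.77% of 35116 RefSeq promoters. The box CCAAT was found in 49 (84.5%, against 34.6%) and TATAAA in 39 (67.2%, against 11.5%). In 4 members, matches overlapped each other. Promoters of head-to-head genes overlap, so the same match can be counted at both genes of a pair. The octamer was limited to H2A (10 of 14) and H2B (12 of 15) promoters and was found in none of the 6 H1, 11 H3 and 12 H4 promoters. GC content had a median of 43.0%, against 58.7% over all promoters.

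In each of 4 families, a promoter near peaks of all 3 lists is shown with one of the same family near no peak. The capitals mark octamer, CCAAT and TATAAA matches on either strand, and each sequence reads in the direction of the gene. They are H1-3 (chr6:26234938-26235237, minus strand) and H1-5 (chr6:27867539-27867838, minus), H2BC11 (chr6:27132746-27133045, minus) and H2BC14 (chr6:27814772-27815071, plus), H3C1 (chr6:26020201-26020500, plus) and H3C8 (chr6:26271364-26271663, minus), and H4C4 (chr6:26189063-26189362, minus) and H4C13 (chr6:27873485-27873784, minus). The first of each family has the peaks:
H1-3: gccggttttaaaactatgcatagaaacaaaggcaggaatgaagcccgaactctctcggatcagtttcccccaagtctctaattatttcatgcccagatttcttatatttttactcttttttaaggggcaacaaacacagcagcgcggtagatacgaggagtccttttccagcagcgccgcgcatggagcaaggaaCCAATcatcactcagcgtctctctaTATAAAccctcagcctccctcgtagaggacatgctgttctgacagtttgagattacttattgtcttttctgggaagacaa
H1-5: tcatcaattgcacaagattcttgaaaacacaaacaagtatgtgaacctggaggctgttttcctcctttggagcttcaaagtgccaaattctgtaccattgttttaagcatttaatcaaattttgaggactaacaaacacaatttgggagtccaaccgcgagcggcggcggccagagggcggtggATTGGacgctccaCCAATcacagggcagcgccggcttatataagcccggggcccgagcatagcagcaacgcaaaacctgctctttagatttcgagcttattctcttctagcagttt
H2BC11: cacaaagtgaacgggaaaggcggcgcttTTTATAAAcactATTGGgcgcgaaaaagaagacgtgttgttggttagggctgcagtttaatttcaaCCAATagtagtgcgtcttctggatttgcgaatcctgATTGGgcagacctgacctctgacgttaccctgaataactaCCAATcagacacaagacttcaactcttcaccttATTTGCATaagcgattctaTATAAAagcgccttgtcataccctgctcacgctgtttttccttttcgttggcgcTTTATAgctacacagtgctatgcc
H2BC14: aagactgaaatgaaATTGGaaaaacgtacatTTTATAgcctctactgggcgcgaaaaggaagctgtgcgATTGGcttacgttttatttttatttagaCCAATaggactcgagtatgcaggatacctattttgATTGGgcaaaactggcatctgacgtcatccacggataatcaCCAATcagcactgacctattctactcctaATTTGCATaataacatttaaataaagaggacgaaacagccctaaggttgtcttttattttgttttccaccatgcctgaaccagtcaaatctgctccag
H3C1: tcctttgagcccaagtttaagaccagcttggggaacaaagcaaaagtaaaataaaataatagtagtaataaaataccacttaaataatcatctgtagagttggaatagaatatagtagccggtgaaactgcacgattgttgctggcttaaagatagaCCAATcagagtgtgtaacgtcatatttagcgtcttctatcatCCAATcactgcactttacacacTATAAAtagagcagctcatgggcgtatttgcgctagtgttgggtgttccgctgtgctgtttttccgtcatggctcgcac
H3C8: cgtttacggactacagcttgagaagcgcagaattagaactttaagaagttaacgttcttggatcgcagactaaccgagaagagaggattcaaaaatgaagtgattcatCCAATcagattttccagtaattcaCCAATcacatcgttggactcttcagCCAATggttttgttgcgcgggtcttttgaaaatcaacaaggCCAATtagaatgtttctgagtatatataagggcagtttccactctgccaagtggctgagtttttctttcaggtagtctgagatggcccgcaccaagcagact
H4C4: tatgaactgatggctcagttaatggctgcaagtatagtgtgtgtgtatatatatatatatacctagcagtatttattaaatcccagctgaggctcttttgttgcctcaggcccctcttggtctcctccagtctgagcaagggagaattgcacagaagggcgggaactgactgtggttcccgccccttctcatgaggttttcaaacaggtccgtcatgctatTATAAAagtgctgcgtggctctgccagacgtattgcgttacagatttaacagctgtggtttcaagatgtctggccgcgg
H4C13: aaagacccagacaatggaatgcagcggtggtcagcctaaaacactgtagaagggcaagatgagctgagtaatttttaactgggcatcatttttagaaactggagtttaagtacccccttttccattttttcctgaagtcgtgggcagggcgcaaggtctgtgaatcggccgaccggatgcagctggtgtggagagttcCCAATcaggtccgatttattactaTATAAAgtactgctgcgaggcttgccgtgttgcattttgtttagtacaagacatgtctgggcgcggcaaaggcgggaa
Each motif occurred in marked and in unmarked members, and matches shared by head-to-head genes are again counted at both. Among readable members with a promoter entry, the octamer stood in 13 of 32 with Kbz near the start and in 5 of 14 with no peak there, CCAAT in 27 of 32 and 13 of 14, and TATAAA in 24 of 32 and 6 of 14. Kac without Kbz was found at the remaining 5, of which 4 had the octamer. The median number of CpG dinucleotides was 11.5 with Kbz and 10.5 with no peak, with ranges of 5 to 25 and 3 to 17.

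Within 1 kb of the gene, 39 of the 63 members had a control Kac peak, or 61.9% (95% Wilson interval 49.6 to 72.9, counting error only), beside 80.1% of all protein-coding genes. SB Kac reached 42, or 66.7% (54.4 to 77.1), beside 79.0%. Kbz reached 37, or 58.7% (46.4 to 70.0), beside 68.9%. These intervals treat the members as independent, which they are not. Of the peaks there, 14 of 27 control Kac, 14 of 28 SB Kac and 13 of 25 Kbz peaks each lay at 2 or more members. The intervals are therefore likely too narrow. Peaks of all 3 lists stood at 36 members (57.1%, beside 68.1%), and 20 had no peak in any list (31.7%, beside 17.7%). SB Kac without Kbz was seen at 5 (beside 10.6%), of which H2BC8, H2AC8 and H2AC18 had SB Kac alone (beside 1.58%). Control Kac alone was seen at H4C12 (beside 2.82%). Of the readable members, 38 of 56 had control Kac (67.9%), 40 SB Kac (71.4%) and 36 Kbz (64.3%), and 15 had no peak (26.8%). Of the 18307 protein-coding genes whose start had at least 80% unique 50-mers, the shares were 84.3, 83.1 and 72.8%. No peak was found within 1 kb of the gene at 13.6% of them. No member had Kbz without SB Kac. The lists differ in length, and with the 15000 peaks of highest −log10 p in each, control Kac was found at fewer members (16) than Kbz (22), and SB Kac at 26. At a −log10 q of at least 5, 23 members had control Kac and 19 Kbz. Of the bases within 1 kb of the members, 34.7% lay in control Kac peaks, 37.4% in SB Kac peaks and 20.7% in Kbz peaks.

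A long gene has more room for a peak, and histone genes are short, so the same was counted within 1 kb of the start of the canonical transcript. There 37 of 56 readable members had control Kac (66.1%, beside 68.9% of all protein-coding genes), 40 SB Kac (71.4%, beside 68.2%) and 34 Kbz (60.7%, beside 57.3%). All 3 lists were present at 33 (58.9%, beside 56.8%) and none at 15 (26.8%, beside 28.5%). The readable members were chosen on the whole gene window, and near their starts the share of unique 50-mers went down to 76.4%. The set closest to them in readability is the 18307 genes, members included, whose start had at least 80% unique 50-mers. Of these, 72.9% had control Kac, 72.1% SB Kac, 60.8% Kbz and 60.4% all 3 lists, and 24.5% had none, so the readable members were not above them in any list and lay farthest below them in control Kac. Over all 63 members the counts were 38, 42 and 35. Other genes with a canonical transcript of at most 1 kb and a readable start were marked less often. Of these 348 genes, 21.0% had control Kac, 20.1% SB Kac and 14.7% Kbz near the start. The 23 other protein-coding genes of the same 2 intervals had shares of 78.3, 69.6 and 60.9%. Among them, a gene without a symbol starts at the same base as the member H2AC7 and has the same peaks, so it is not a separate case.

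**Figure D2:**
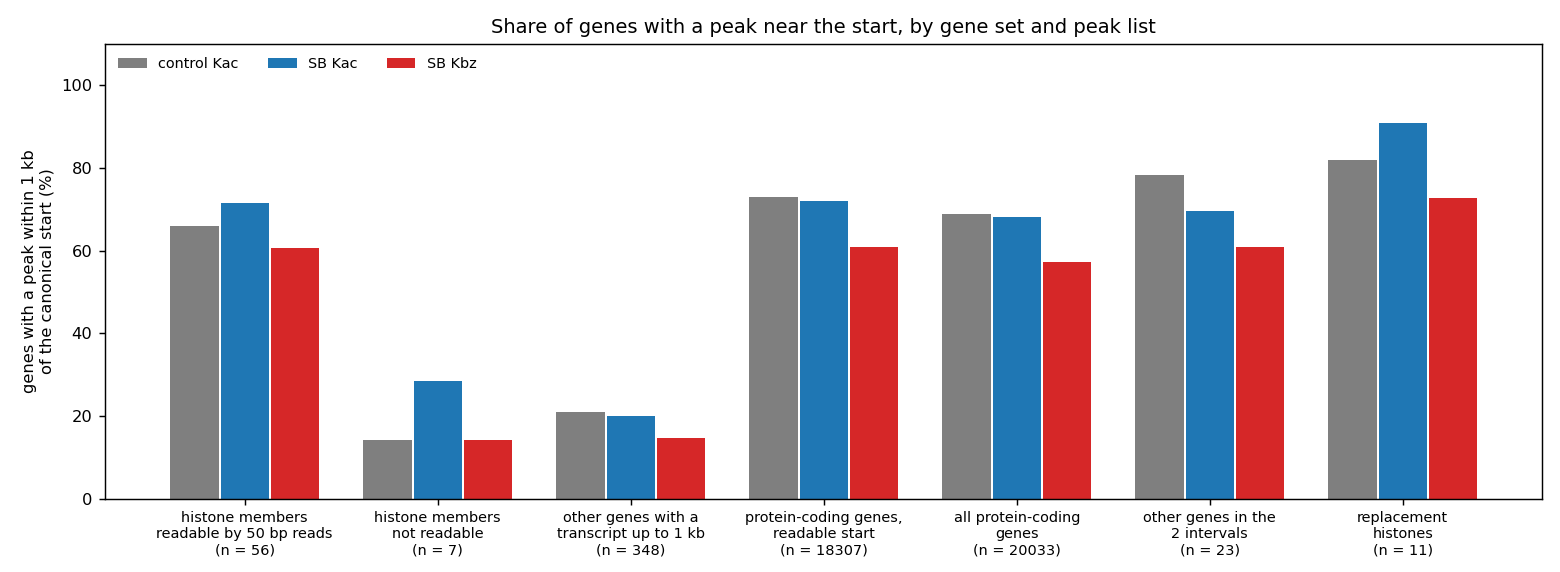
Percentage of genes with a peak within 1 kb of the canonical start (y axis, from 0) in 7 gene sets, with grey bars for control Kac, blue for SB Kac and red for SB Kbz; the number of genes stands under each set. The readable histone genes (66.1, 71.4 and 60.7%) stand level with or below protein-coding genes with a readable start (72.9, 72.1 and 60.8%) and above other genes with short transcripts (21.0, 20.1 and 14.7%).

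The members fell into 4 runs with gaps of under 200 kb. The chromosome 1 run held 10 members over 74.7 kb. Its 3 readable genes, H2BC21, H2AC20 and H2AC21, had peaks of all 3 lists, with a control Kac peak from 149883615 to 149889399 and an SB Kac peak from 149883576 to 149889389 over all of them. Kbz was called there as 2 separate peaks, the outer one at percentile 83.2 (149888159 to 149889286) and the inner one at 39.5 (149885230 to 149886969). Among the 7 poorly readable genes, H2AC19 had peaks of all 3 lists and H2AC18 a single SB Kac peak at percentile 22.8, none of them over the gene's start.

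The major run on chromosome 6 held 32 members over 269 kb, of which 8 had no peak. Control Kac peaks covered 19.4% of it, SB Kac peaks 24.6% and Kbz peaks 9.86%. Its longest peak, which was also the longest SB Kac peak at any member, ran over 14679 bp from 26020355 to 26035033 and held the starts of H3C1, H4C1, H4C2, H3C2 and H2AC4. In control cells the same stretch had 3 Kac peaks, with 1 from 26020458 to 26027419 at H3C1, H4C1 and H4C2 and 1 from 26031712 to 26034841 at H3C2 and H2AC4. Kbz lay there in 3 pieces of 1726, 872 and 2109 bp.

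The small run on chromosome 6 held 5 members in 21.7 kb and was the most densely covered, with 55.7% of its bases in control Kac peaks, 61.2% in SB Kac peaks and 39.1% in Kbz peaks. It held the longest control Kac peak (9191 bp, 27126327 to 27135517) and the longest Kbz peak (4362 bp, 27131058 to 27135419) of all members, both over the shared promoter of H2BC11 and H2AC11. H4C9, in the middle of the run, had no peak within 1 kb, although a Kbz peak ended 1482 bases from its start.

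The last run held 16 members over 86.4 kb, with 22.2% of it in peaks of control Kac, 21.0% of SB Kac and 7.42% of Kbz. Marked and unmarked genes alternated in blocks. H2AC16, H1-5, H3C11 and H4C13 formed the longest unmarked block, over 8.22 kb, between H2BC15 and H3C12. From their starts the nearest control Kac peak lay 16737 to 19159 bases away, the nearest SB Kac peak 16790 to 21715 bases and the nearest Kbz peak 19295 to 26026 bases.

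**Figure D3:**
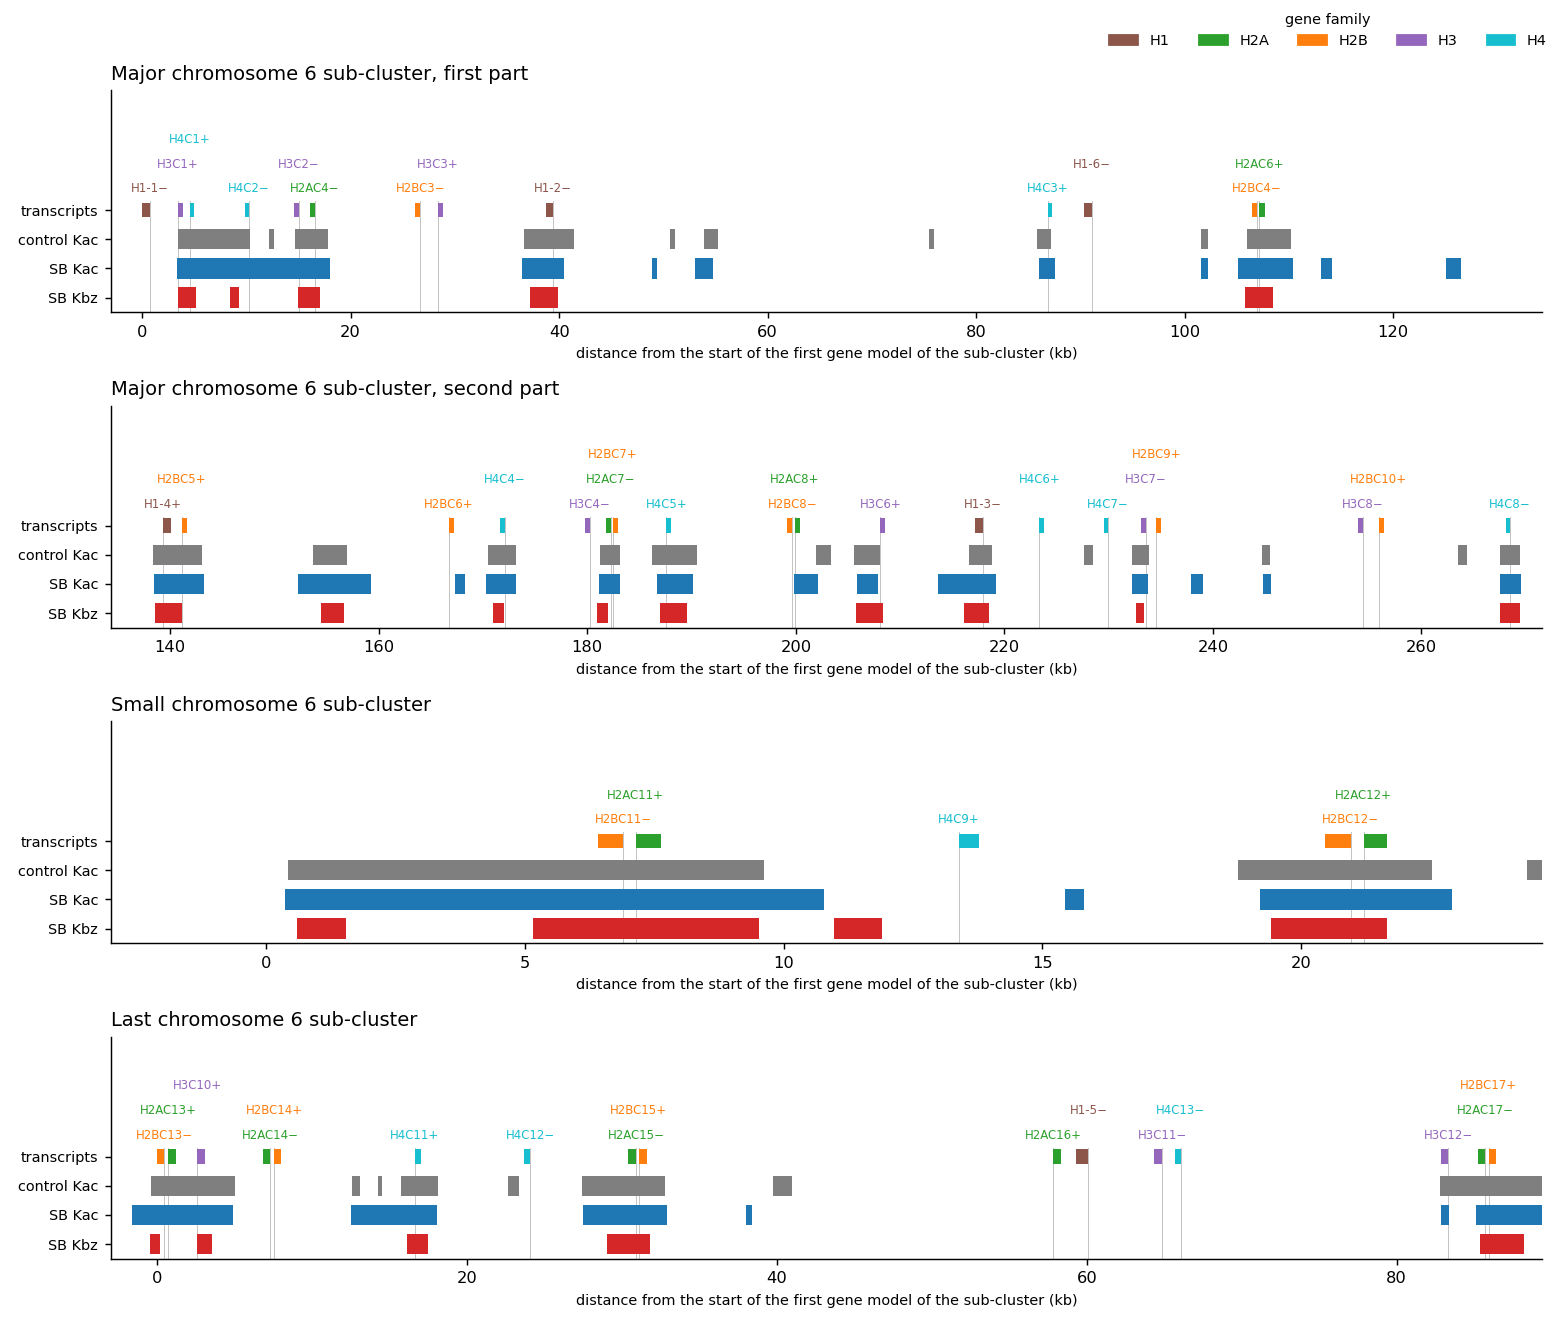
Peaks of control Kac (grey), SB Kac (blue) and SB Kbz (red) along the 3 chromosome 6 runs, with canonical transcripts as coloured boxes by family, thin lines at their starts and strands as + or −; the x axis is the distance in kb from the first gene model of the run. The SB Kac peak of 14679 bp spans 5 genes at the left of the first panel, and the block H2AC16, H1-5, H3C11 and H4C13 in the last panel has no peak.

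The H1 genes encode the linker histone that closes the DNA on the nucleosome. H1-2, H1-3 and H1-4 had peaks of all 3 lists over their starts, and H1-1, H1-5 and H1-6 had none within 1 kb. Of protein-coding genes with a readable start, 47.7% had all 3 lists over it and 24.5% had none within 1 kb of it. H1-3 had the highest control Kac peak of any member (percentile 97.0, 26233639 to 26235881), an SB Kac peak at 93.2 (26230665 to 26236200) and the highest Kbz peak of the family at 64.1 (26233182 to 26235569). H1-2 stood at 83.4, 90.5 and 39.5 in control Kac, SB Kac and Kbz, and H1-4 at 84.6, 80.8 and 42.0. In all 3 genes the Kbz peak ranked lower in its list than the Kac peaks did in theirs. H1-6, the testis form, lay 3528 bases from the nearest SB Kac peak and 14646 bases from the nearest Kbz peak. H1-1 lay 2567 and 2677 bases from them, next to the marked gene H3C1.

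The H2A and H2B genes make the dimers at the flanks of the nucleosome. Of 13 readable H2A genes, 10 had all 3 lists near the start, as had 9 of 15 H2B genes. The share was 60.4% of protein-coding genes with a readable start. Each family holds few genes and neighbours share peaks, so differences between families were not tested. The highest Kbz peak near the start of any member lay over both H2AC15 and H2BC15, at percentile 91.6 with a fold of 6.36 (27836496 to 27839290). The Kac peaks there stood at 84.3 in control and 93.0 in SB-treated cells. The next Kbz peak in H2A was that of H2AC21 (83.2), followed by that of H2AC17 and H2BC17 at 80.4.

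Head-to-head starts less than 1 kb apart were found 11 times, 10 of them between an H2A and an H2B gene at 194 to 251 bp. In 10 of the 11 both genes had the same lists near their starts. The windows of such genes overlap, so they are not independent. All 3 lists were present at 8 of these promoters. At H2BC21/H2AC20, H2BC4/H2AC6, H2BC11/H2AC11, H2BC12/H2AC12, H2AC15/H2BC15 and H2AC17/H2BC17, Kbz covered the whole stretch between the starts. At H2AC7/H2BC7 and H2BC13/H2AC13, both Kac lists covered that stretch and Kbz none of it. The Kbz peak lay instead over 54.9% of the H2AC7 transcript and over 45.0% of the H2BC13 transcript. That peak stood at percentile 9.57 at H2AC7 and at 59.6 at H2BC13.

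H2BC8/H2AC8 and H2AC14/H2BC14 differed from the other shared promoters. The starts of H2BC8 and H2AC8 were near an SB Kac peak only (26216905 to 26219119, percentile 39.4). Genes with SB Kac alone near the start made up 2.34% of all protein-coding genes. This peak lay over the start and the whole transcript of H2AC8. It covered 7.26% of the stretch between the 2 starts and ended 216 bases short of the start of H2BC8. Farther downstream it overlapped a control Kac peak at percentile 56.5 (26218993 to 26220375), which began 2072 bases from the start of H2AC8. No peak lay near H2AC14/H2BC14, the nearest being control Kac at 2276 bases. In the 300 bases of promoter at each of these starts 82.5% of the 50-mers were unique, as they were at H2BC13/H2AC13, which had all 3 lists.

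H2BC3, H2BC10 and H2AC16 also lay away from any peak, at 8679, 10370 and 19444 bases from SB Kac. H2BC9 had both Kac lists 730 and 764 bases from its start and Kbz at 1186 bases, outside the limit. H2BC6 had peaks of all 3 lists by its gene model only, which begins far upstream of the canonical transcript. Near its canonical start a single SB Kac peak of percentile 22.4 was called (26184341 to 26185269), and the nearest Kbz peak lay 4229 bases away.

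The H3 genes encode a core histone whose tail carries many of the known acylation sites. Of 10 readable members, H3C1, H3C2, H3C6, H3C7 and H3C10 had all 3 lists near the start (beside 60.4% of genes with a readable start). H3C1 had the highest Kbz peak (percentile 80.4, 26020465 to 26022190), which it shared with H4C1. H3C6 had the highest SB Kac peak of any member (97.9, fold 6.68) beside a control Kac peak at 90.8 and Kbz at 71.4. Both Kac peaks of H3C6 ended before its start, 181 bases away for SB Kac, while the Kbz peak reached over it. H3C12 had Kac over its start in both lists, at 91.8 and 64.8, and the nearest Kbz peak lay 2003 bases away over H2AC17. H3C4 had SB Kac and Kbz at 913 and 643 bases and control Kac at 1001 bases, just outside the limit. Its peaks were those of H2AC7 and H2BC7 next to it. H3C3, H3C8 and H3C11 had no peak, with the nearest SB Kac peak 8039, 8852 and 17978 bases away.

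The H4 genes encode the partner of H3 in the core of the nucleosome. Of 12 readable members, H4C1, H4C2, H4C4, H4C5, H4C8 and H4C11 had all 3 lists near the start (beside 60.4% of genes with a readable start). H4C1 had the highest Kbz peak (80.4), followed by H4C5 (63.1) and H4C4 (62.2). SB Kac ranked higher in its list than control Kac in all 7 H4 genes with both, beside 63.5% of 13104 other genes. The order was that of 4 of 6 H3 genes, 4 of 10 H2A genes, 4 of 10 H2B genes and 1 of 3 H1 genes. H4C1 and H4C2 shared their Kac peaks and are not separate cases. Among the others were H4C4 at 92.8 and 73.7, H4C5 at 89.8 and 70.4 and H4C8 at 94.2 and 87.7. Ranks within separate lists carry no error, so this is a description of these libraries. H4C3 had Kac over its start in both lists (45.5 and 60.5) and Kbz 18848 bases away. H4C12 had a single control Kac peak of percentile 12.5, 703 bases from its start. Control Kac alone near the start was found at 3.16% of protein-coding genes. In the promoters of H4C12 and H4C11, 62.5% of the 50-mers were unique, the lowest share among the readable members. A missing peak at H4C12 is therefore less certain, although H4C11 had all 3 lists at the same share. The part of this in the missing SB Kac and Kbz peaks of H4C12 was not tested. H4C6, H4C7, H4C9 and H4C13 had no peak. For H4C7 the nearest control Kac peak lay 1491 bases from the start.

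**Figure D4:**
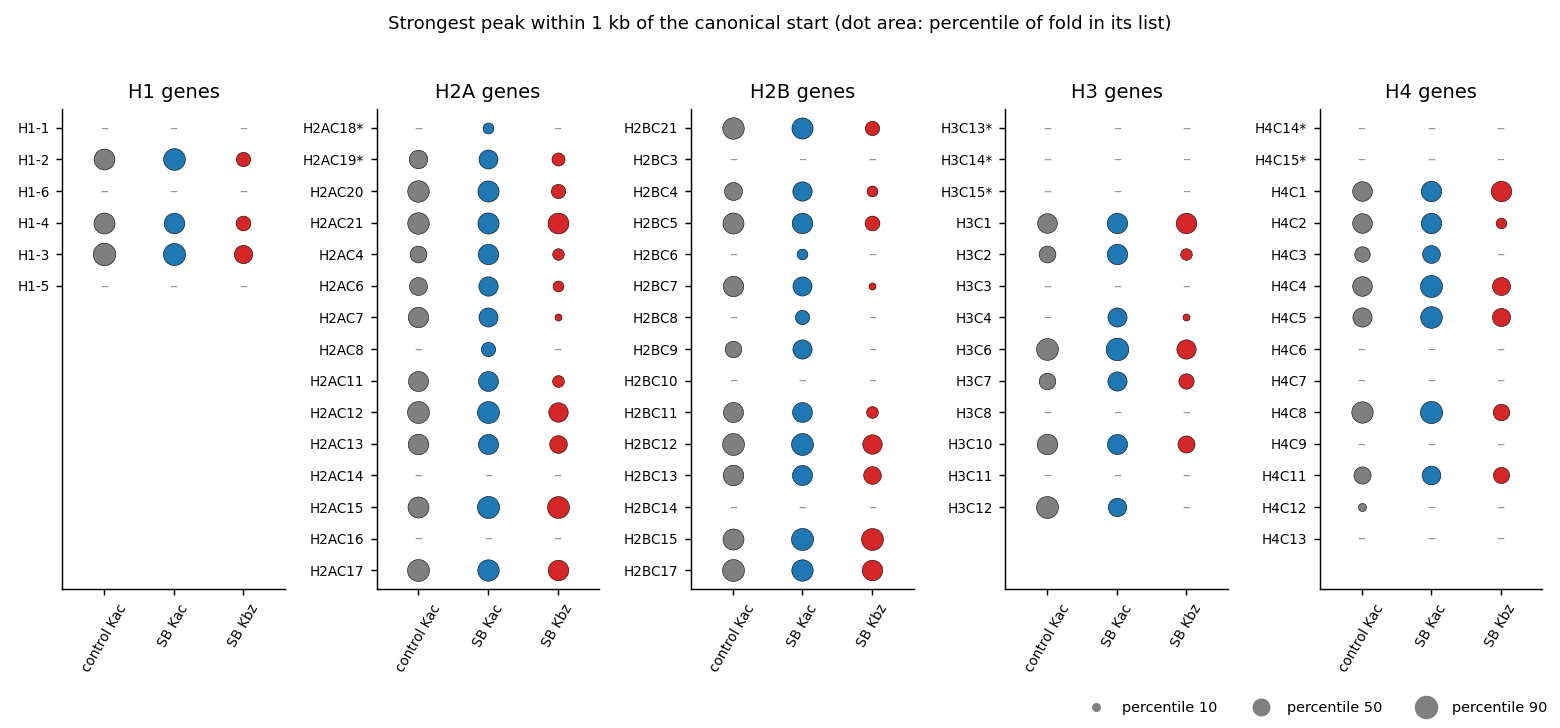
Peaks near each of the 63 members by family, with lists as columns; the area of a dot is the percentile, within its list, of the highest fold among peaks within 1 kb of the canonical start, a dash means no peak, and an asterisk marks the 7 poorly readable genes. Kbz dots are mostly smaller than the SB Kac dots of the same gene, and H2AC15 and H2BC15 have the largest Kbz dots (percentile 91.6).

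Among members with both marks the Kbz peak ranked below the SB Kac peak in 32 of 34, or 94.1%. Neighbouring members often shared a peak, so these 34 are not separate cases. Over the other protein-coding genes the share was 92.6% of 11408, so this order was the common one. The gap between the percentiles had a median of 29.9 points at the members and 19.1 points at the other genes. The median Kbz percentile near the start was 51.4 for the readable members, beside 67.8 for all protein-coding genes with such a peak. For Kac the medians were 80.6 and 82.2 in control and 79.6 and 85.8 in SB-treated cells. The exceptions to the order were H3C1 and H4C1, whose Kbz peak stood at 80.4 and whose SB Kac peak at 79.6.

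Kbz peaks were also shorter than the Kac peaks around them. Within 1 kb of a member lay 25 Kbz peaks (median 1887 bp long), 28 SB Kac peaks (3176 bp) and 27 control Kac peaks (2741 bp). All 25 overlapped both Kac lists. In the whole Kbz list, 93.7% of peaks overlapped SB Kac. Conversely, 20 of the 28 SB Kac peaks overlapped Kbz (71.4%, beside 33.8% of the list). The list also holds peaks away from genes, and by gene the shares were close. Of members with SB Kac within 1 kb of the gene, 88.1% had Kbz, beside 86.6% of all protein-coding genes with SB Kac. Near the canonical start the shares were 83.3 and 83.7%. In the major run, 97.3% of bases under Kbz were also under SB Kac, while 38.9% of SB Kac bases were under Kbz. The share of Kbz bases under SB Kac was 89.1% in the small run and 100% in the chromosome 1 and last runs. In the small run a Kbz peak at percentile 7.12 (27136879 to 27137799), not within 1 kb of a member, overlapped neither Kac list. Over the whole lists the median lengths were 1097, 1196 and 1211 bp for Kbz, SB Kac and control Kac.

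The position of Kbz relative to the start differed among the 34 readable members that had it within 1 kb. In 24 the peak covered the start, and SB Kac did so in 32 and control Kac in 31. The whole canonical transcript lay under Kbz in 17 of the 34, under SB Kac in 32 and under control Kac in 30. Where Kbz missed the start, it lay wholly downstream in 6 genes (H3C1, H4C2, H4C4, H2AC7, H3C7 and H2BC13) and wholly upstream in H3C4, H2BC7 and H2AC13, the last 2 of which face a gene partly covered by that peak. H2AC21 had Kbz on both sides, with 80.7% of the upstream kilobase covered. The peak edge lay 13 bases from the start of H3C1, 50 bases from that of H4C4 and 193 to 957 bases from the others. Over all 34 genes Kbz covered more of the downstream kilobase in 17 and more of the upstream one in 13.

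At the start itself, 42.9% of the readable members lay under Kbz, 62.5% under SB Kac and 58.9% under control Kac. The other protein-coding genes with a readable start had 48.7, 64.1 and 62.8%. At 1 kb downstream of the start the members had 33.9% under Kbz and the others 22.9%, and at 1 kb upstream 28.6 and 21.7%. At 3 kb upstream, SB Kac covered 28.6% of the members and 12.5% of the others, and control Kac 21.4 and 13.4%. Members lie close together, so a position away from one start is often next to another, and the part of this in the wider curves was not tested.

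**Figure D5:**
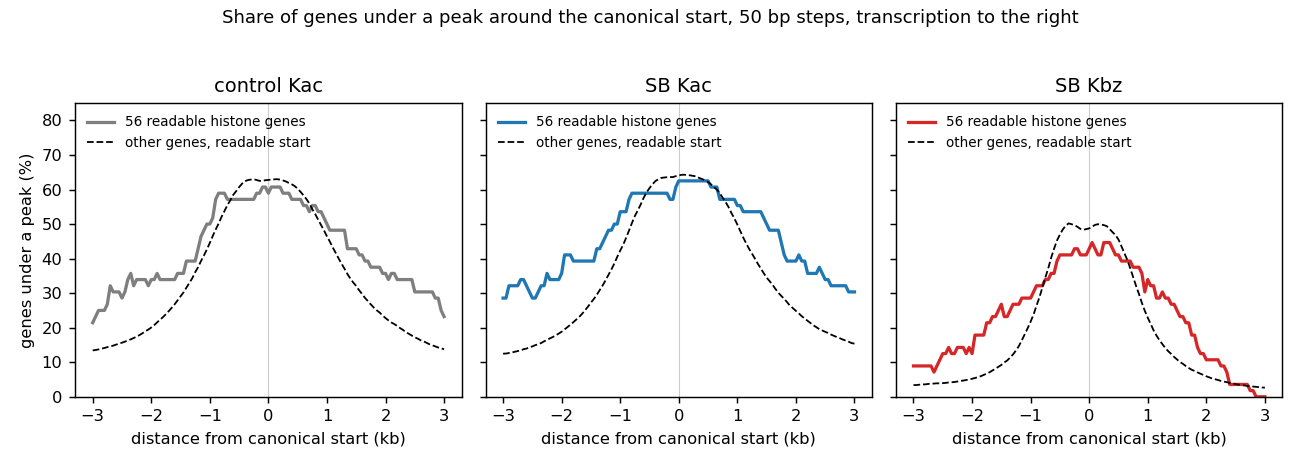
Percentage of genes under a peak (y axis) at positions from 3 kb before to 3 kb after the canonical start (x axis, kb, in the direction of the gene), for 56 readable histone genes (coloured) and the other protein-coding genes with a readable start (dashed), 1 panel per list. At the start the histone genes stand slightly lower, at 42.9 and 48.7% for Kbz, and they stand higher 1 kb away, at 33.9 and 22.9% for Kbz downstream.

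Acetylation with and without SB was compared by presence of peaks. Both Kac lists reached 36 readable members near the start, and the SB Kac percentile was the higher one in 20 of these, or 55.6%, beside 63.5% of 13104 other genes. Of 27 control Kac peaks within 1 kb of a member, 4 did not overlap an SB Kac peak (14.8%, beside 35.3% of the list). These were a peak inside the long H2BC4 gene model (442 bp), one inside the H4C8 gene model (866 bp), that near H4C12 (766 bp) and one inside the H2BC15 gene model (1213 bp), at percentiles 12.5 to 46.0. The first of them lay within the gene HFE, far from the canonical transcript of H2BC4. Of 28 SB Kac peaks, 4 did not overlap control Kac (14.3%, beside 27.5% of the list), near H2AC18, H2BC6, H2AC6 and H2BC15, at percentiles 12.4 to 22.8. None of these 8 peaks lay over a canonical start, and none overlapped Kbz. Member peaks were longer than those of the lists as a whole, and the part of length in these shares was not tested.

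Other genes of the histone pathway were given for comparison. The 21 genes for expression of histones include NPAT, the cell cycle gene CCNE1 and SLBP, which binds the stem-loop. All 21 had peaks of the 3 lists within 1 kb of the gene, beside 68.1% of all protein-coding genes. Near the canonical start, 19 of 21 had Kbz (beside 57.3%), the exceptions being YY1 and ERI1. NPAT stood at percentiles 91.1, 86.2 and 63.8 in control Kac, SB Kac and Kbz, SLBP at 88.4, 82.4 and 70.5, and CCNE1 at 99.9, 98.6 and 95.9. All 14 histone chaperones had the 3 lists near the start, beside 56.8% of all protein-coding genes. Among them were CHAF1B at 48.3, 68.7 and 27.6 and MCM2 at 97.6, 85.9 and 88.1.

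Most of the replacement histones are made outside S phase too. Near the start, 9 of the 11 had control Kac, 10 SB Kac and 8 Kbz, beside 68.9, 68.2 and 57.3% of all protein-coding genes. H2AX stood at 50.2, 81.4 and 45.5. H3-3B had both Kac lists near its start (70.0 and 64.7) and no Kbz there, H2AJ had SB Kac alone (54.8), and H3-5 had no peak. The median Kbz percentile near the start was 73.9 for the replacement histones, 70.6 for the expression genes and 69.3 for the chaperones. It was 67.8 for all protein-coding genes with such a peak and 51.4 for the readable members.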

How the data were processed

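ChIP-seq of Kac and Kbz was read from 3 peak lists. Per the labels and the methods of the study, the authors aligned reads of 50 bp with Bowtie2 2.2.6 to hg38, kept uniquely mapped ones, removed duplicates with SAMtools 0.1.19 and called peaks per library with MACS2 2.1.1 at an FDR of 0.01. The deposited lists are in broad format and reach q-values of 0.0487, 0.0494 and 0.0485. Whether broad regions were called with other settings is not given in the sources used here. The fold deposited for each peak (a ratio over background) was turned into a percentile within its list. The thresholds used the authors' −log10 q and −log10 p. The deposited score was not used. Lists carry no read totals, so depth is unknown.

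A peak belonged to a gene when they lay within 1 kb of each other (at least 1 shared base). The canonical transcript is the one tagged so in GENCODE 44. Unique 50-mers were counted on both strands of 455 reference sequences as exact matches. This count is not a strict limit on what the authors' alignment could read, as the peaks at DAXX show. Overlaps were tested on simulated data, and 0 of 60099 calls differed from those of bedtools 2.31.1. Tables and figures were made in Python 3.11.15 (pandas 2.3.3, numpy 2.4.6, scipy 1.17.1, matplotlib 3.10.9, numba 0.67.0). No test was run, since each group has 1 library. Shares carry Wilson 95% intervals for counting error where given, and these ignore that neighbouring members share peaks.

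The rule for members uses names and positions only, but this group of genes, the gene lists, motifs and alternatives were chosen with earlier results of these data known. Members named are those lacking a list, the highest Kbz peak of each family, the longest peaks, repeated genes on chromosome 1, the testis form, and border genes. Some genes of the comparison lists are not reported here. Alternatives changed the threshold, the number of peaks, the window, the overlap and the members.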

Additional observations from a re-analysis of the deposited data

How the results depend on the processing

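The 9 counts and shares within 1 kb of the gene were recomputed 105 times with 1 choice changed. In 74 the value stayed within its limit (1.5 times for a count, the counting interval for a share), and in 31 it moved. The alternatives with the canonical start, the canonical coding sequence and H2BC18 were chosen after seeing the data. At a −log10 q of at least 2, SB Kac without Kbz stood at 8 members. At a −log10 q of at least 5, fewer peaks were left: 23 members had control Kac, 19 Kbz, 15 all 3 lists, 11 SB Kac without Kbz and 31 no peak, and peaks covered 22.3% (control Kac) and 9.59% (Kbz) of the window bases. With 15000 peaks per list the numbers were 16 control Kac, 26 SB Kac, 22 Kbz, 12 all 3 and 34 none, with 14.9, 22.4 and 11.0% of bases, so that more members had Kbz than control Kac. When peaks had to cover 50% of the window, 16 had Kbz, 16 all 3, 13 SB Kac without Kbz and 33 none. Within 3 kb of the gene, 8 had SB Kac without Kbz and 12 none. Shorter windows left out gene bodies and were covered more: control Kac took 53.7%, SB Kac 55.8% and Kbz 37.7% within 1 kb of the gene start, in the same order 51.1, 53.1 and 34.9% for the canonical start, and 49.4, 52.3 and 33.8% for the canonical coding sequence, against 34.7, 37.4 and 20.7% as reported. No paired analysis was possible because no group had a second library, and no replicate could be left out. Depth was unknown, so a missing peak is not an absent mark.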

Other observations

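Histone genes of the same kind outside the clusters gave mixed values. H4C16 on chromosome 12 had peaks of all 3 lists near its start, at percentiles 92.3, 92.1 and 83.1 in control Kac, SB Kac and Kbz, above every clustered H4 gene in Kbz. H2AC25 and H2BC26 on chromosome 1 shared peaks at 73.1, 91.5 and 56.2. H3-4, next to them, had no peak in any list. The testis forms H2AC1 and H2BC1 on chromosome 6, which lie before the interval, had none either, with 98.6 and 97.0% unique 50-mers near their starts. H2BC18 on chromosome 1, whose gene model begins before the interval, had no peak, and 36.0% of the 50-mers near its start were unique.

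Among the other protein-coding genes of the intervals, BOLA1, next to H2AC21, stood at percentiles 97.3, 98.9 and 98.1. MTMR11 had a Kbz peak at 4.13 beside Kac at 70.3 and 67.2. HFE, BTN1A1, BTN3A3 and OR2B2 had control Kac alone within 1 kb of the gene, as had 2.82% of all protein-coding genes. The peak in HFE is the one counted above inside the H2BC4 gene model.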
